A study of Mus musculus with 6 samples.

Results

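The 10 genes described here mark inhibitory interneurons of the cerebral cortex and the embryonic source of those cells. They were chosen by symbol through GENCODE mouse release M21, and each matched 1 of the 17889 rows of the deposited table. By known developmental origin, 6 belong to the lineage of the medial ganglionic eminence (Pvalb, Lhx6, Sox6, Nxph1, Satb1 and Maf), 2 to that of the caudal ganglionic eminence (Calb2 and Adarb2), and 2 serve cells of both (Reln and Erbb4). Expression was measured by mRNA sequencing of prefrontal cortex taken from C57BL/6J mice on postnatal day 28. The WT group held 3 wild-type samples, and the Hetero group held 3 samples with the genotype Cyfip2 mutant, called Hetero in their titles. The labels give no sex, do not say which part of Cyfip2 is altered, and leave unsaid whether each sample is another animal, so a p-value here covers the spread among these libraries, some of which may be technical.

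Cortical GABAergic interneurons are born in the ventral forebrain and migrate into the cortex. The medial eminence gives rise to the fast-spiking parvalbumin cells and to the somatostatin cells, under the transcription factors Lhx6, Sox6, Satb1 and Maf. The caudal eminence gives rise to cells that express Vip, Calb2, Lamp5 or Ndnf, among others, and Adarb2 is a broad mark of that branch. Parvalbumin is a calcium buffer whose level in fast-spiking cells climbs during postnatal maturation and varies with activity, while the transcription factors are markers of identity.

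Upstream sequence is shown for 4 of the genes: Pvalb, whose samples separated by genotype, with both of its listed starts, and Lhx6, Adarb2 and Erbb4 as representatives of the medial, caudal and shared groups. The RefSeq promoter table (GRCm38.p6) held 8 of the 10 members, with 20 start sites, and not Calb2 or Maf. Each sequence is the 250 bases before a start, read 5′ to 3′ on the strand of the gene. Capitals mark matches on either strand to any of 5 motifs, and matches of different motifs did not overlap in these windows. The TATA box was searched as TATAAA. The core recognised by Sox proteins was searched as ACAAT. The core of homeodomain sites, the class of factor that includes Lhx6, was searched as TAATTA. The half-site of Maf proteins was searched as TGCTGA. The E-box, the site of basic helix-loop-helix factors, was searched as CANNTG.
Pvalb, upstream of the gene, chr15:78206401-78206650, minus strand: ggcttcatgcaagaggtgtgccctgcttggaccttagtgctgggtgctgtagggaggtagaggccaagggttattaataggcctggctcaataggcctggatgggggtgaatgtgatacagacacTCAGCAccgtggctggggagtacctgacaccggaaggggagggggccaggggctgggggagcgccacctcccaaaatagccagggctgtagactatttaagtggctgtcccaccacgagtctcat
Pvalb, second start, chr15:78204238-78204487, minus strand: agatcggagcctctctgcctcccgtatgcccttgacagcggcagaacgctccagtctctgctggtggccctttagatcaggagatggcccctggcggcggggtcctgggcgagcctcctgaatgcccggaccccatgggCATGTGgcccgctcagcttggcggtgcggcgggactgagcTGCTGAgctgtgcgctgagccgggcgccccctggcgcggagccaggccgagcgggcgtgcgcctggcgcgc
Lhx6, chr2:36105409-36105658, minus strand: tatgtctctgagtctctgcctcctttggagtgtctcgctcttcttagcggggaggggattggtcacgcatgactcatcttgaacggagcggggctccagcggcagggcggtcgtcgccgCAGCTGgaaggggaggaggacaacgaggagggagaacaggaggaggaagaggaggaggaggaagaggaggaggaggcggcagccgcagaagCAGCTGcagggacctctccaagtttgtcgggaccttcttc
Adarb2, chr13:8202616-8202865, plus strand: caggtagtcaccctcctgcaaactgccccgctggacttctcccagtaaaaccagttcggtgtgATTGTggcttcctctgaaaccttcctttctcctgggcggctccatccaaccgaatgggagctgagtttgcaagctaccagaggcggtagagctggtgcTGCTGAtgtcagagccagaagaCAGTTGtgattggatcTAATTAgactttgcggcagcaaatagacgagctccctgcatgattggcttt
Erbb4, chr1:69108060-69108309, minus strand: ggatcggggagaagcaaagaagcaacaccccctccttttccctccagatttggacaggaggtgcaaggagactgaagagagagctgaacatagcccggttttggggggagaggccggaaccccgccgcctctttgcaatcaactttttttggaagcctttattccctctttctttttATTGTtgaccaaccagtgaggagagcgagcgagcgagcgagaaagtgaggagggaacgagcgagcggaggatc

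The Pvalb window outside the gene held 4 CG dinucleotides and 1 Maf half-site match, on the other strand. The window before the second start lies within the gene and outside annotated exons, with 23 CG dinucleotides, 1 Maf half-site match and 1 E-box match. In the Lhx6 window there were 14 CG dinucleotides and 2 E-box matches; of 2 further Lhx6 starts in the table, both within the gene and not printed, the window of 1 held 2 Sox core matches and that of the other held 0 motif matches. Adarb2 had 1 match each to the Sox core, the homeodomain core, the Maf half-site and the E-box, and Erbb4 had 1 to the Sox core. Over all 32817 windows of that length in the table, the TATA box occurred in 12.4%, the Sox core in 27.7%, the homeodomain core in 4.85%, the Maf half-site in 16.1% and the E-box in 66.2%, and the median window held 6 CG dinucleotides. The matches describe letters in these windows and say nothing of binding.

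The 14969 genes whose normalized counts averaged 10 or more over the 6 samples were tested, all 10 members among them. Libraries were estimated from the spacing of low values to hold about 25455900 to 43888300 reads, Hetero sample 3 having the highest estimate. These estimates are rough. In Hetero sample 3, 15.5% of low values were whole multiples of the fitted step, the smallest share of the 6 samples, so its rank is uncertain. Cyfip2, the mutated gene, read between 27503 and 31933 in WT and between 18285 and 21237 in Hetero. Its groups did not overlap, at a log2 difference of -0.57 ± 0.07 (SE), but the limma adjusted p was 0.312; an exact two-sided permutation test over the 20 assignments gave p = 0.1, the smallest this design allows. At a limma adjusted p under 0.05, 0 genes were called higher (0%) and 0 lower (0%), and 0 of the 10 members were called. At an unadjusted p under 0.05 there were 248 higher genes (1.66%) and 325 lower genes (2.17%), or 3.83% in either direction. By that looser rule 1 member, Pvalb, was on the higher side and 0 members were on the lower side; without Hetero sample 1 there were 2 on the higher side, Pvalb and Reln (limma unadjusted p = 0.034 for Reln). The 3 Hetero values lay wholly above the WT values for 4.4% of tested genes and wholly below for 4.32%, or 8.72% together. Pvalb was the 1 member of 10 whose groups did not overlap. Of all tested genes 49.1% had a higher fitted value in Hetero.

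Pvalb (ENSMUSG00000005716, chromosome 15, 78191114 to 78206400 in GRCm38, minus strand) encodes parvalbumin, the calcium buffer of fast-spiking interneurons. Its normalized counts were 829, 850 and 861 in WT samples 1 to 3 and 938, 982 and 1189 in Hetero samples 1 to 3. All Hetero samples were above all WT samples; the WT values lay close together, whereas Hetero sample 3 stood well above the other Hetero samples. The means were 847 ± 16.4 in WT and 1036 ± 134 in Hetero (mean ± SD of 3 samples). The log2 difference came to 0.28 ± 0.09 (SE), which is a Hetero to WT ratio of 1.22 (95% interval 1.05 to 1.41). Pvalb ranked 133 among the 14969 tested genes by p (limma unadjusted p = 0.0124), and its Benjamini-Hochberg adjusted p was 1.00, so the difference did not pass the test over all genes. Without Hetero sample 3 the log2 change was 0.18 (limma unadjusted p = 0.0318), and over the 17 alternatives it ran from 0.18 to 0.35, higher in Hetero each time. Because all Hetero values lay above all WT values, leaving out samples could not have reversed its sign. The alternatives of moderation, filter, replicate block and threshold left the estimate itself unchanged. In whole tissue, a different number of cells of a type and a different amount of RNA per cell cannot be told apart.

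**Figure D1:**
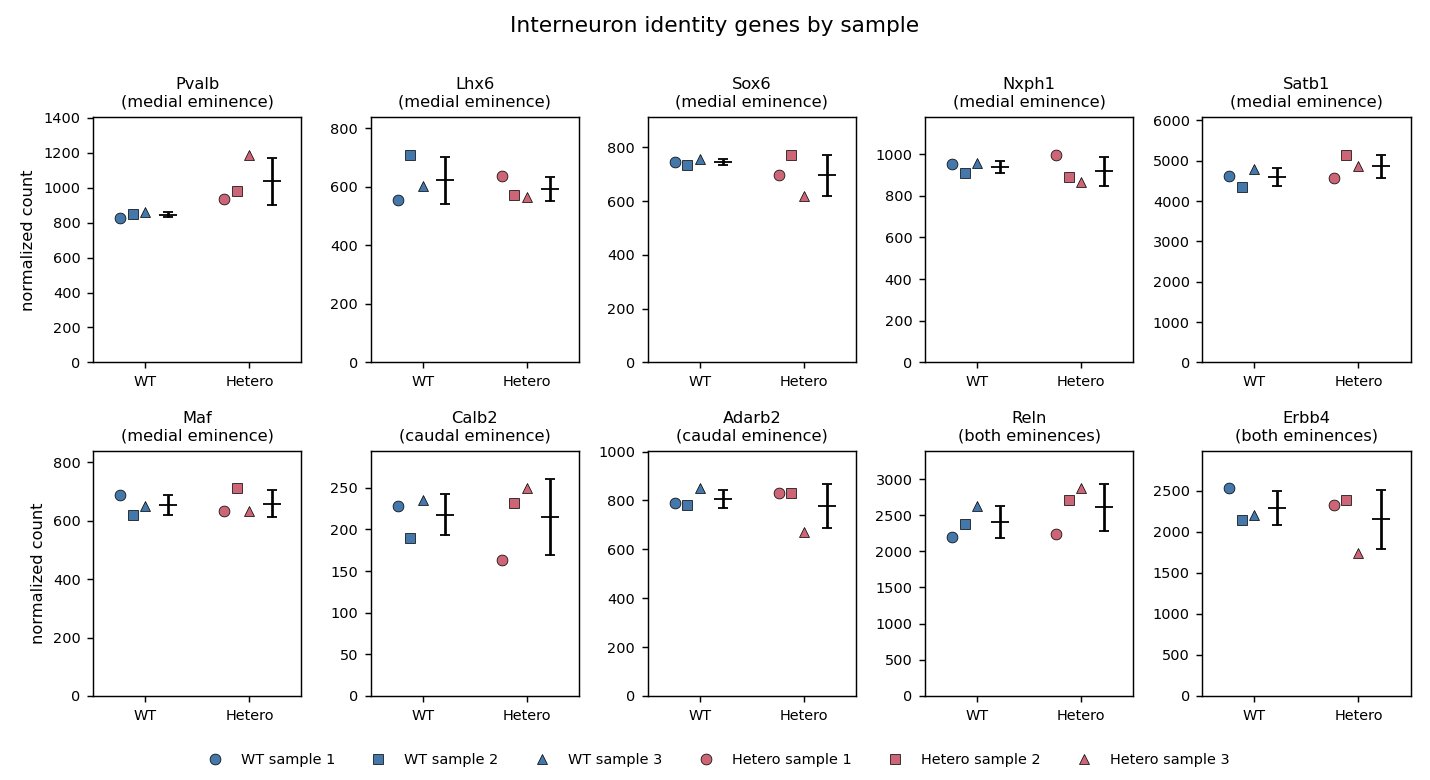
Normalized counts (y axis, from 0) of the 10 interneuron identity genes in 3 WT and 3 Hetero samples (x axis); points are single samples, with the group mean ± SD drawn next to them. Only the Pvalb panel shows groups that do not overlap, 829 to 861 in WT and 938 to 1189 in Hetero, and Hetero sample 3 is the lowest sample for Sox6, Nxph1, Adarb2 and Erbb4.

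The transcription factors that specify the medial lineage gave values on both sides of 0, with overlapping groups. Lhx6 (ENSMUSG00000026890, chromosome 2, 36081953 to 36105408, minus strand), the LIM homeodomain factor needed for parvalbumin and somatostatin fates, read 554, 709 and 602 in WT and 638, 573 and 566 in Hetero. WT sample 2 was the highest and WT sample 1 the lowest, so the WT range enclosed all Hetero values. Its log2 difference came to -0.07 ± 0.10 (SE), and it was 0.03 without WT sample 2. Sox6 (ENSMUSG00000051910, chromosome 7, 115470872 to 116038796, minus strand), an SRY-box factor acting after Lhx6 and also expressed by oligodendrocyte precursors, read 746, 735 and 758 in WT and 696, 773 and 620 in Hetero. The WT samples were tight, and Hetero sample 2 exceeded them all while the other Hetero samples were below. The log2 difference of Sox6 came to -0.11 ± 0.09 (SE), and without Hetero sample 3 it was -0.03.

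Satb1 (ENSMUSG00000023927, chromosome 17, 51736187 to 51833290, minus strand), a chromatin organizer that promotes maturation of medial-lineage cells and is present in other neurons too, read 4629, 4362 and 4800 in WT and 4563, 5148 and 4865 in Hetero. Hetero samples 2 and 3 were above every WT sample and Hetero sample 1 was within their range. The log2 difference came to 0.08 ± 0.06 (SE), the smallest standard error of the 10 genes; it was 0.04 without Hetero sample 2 or without WT sample 2, and 0.12 without Hetero sample 1. Maf (ENSMUSG00000055435, chromosome 8, 115682942 to 115707794, minus strand), the c-Maf factor of medial-lineage interneurons, read 688, 620 and 651 in WT and 632, 712 and 632 in Hetero. These ranges largely coincided, and the log2 difference came to 0.01 ± 0.08. (SE) Nxph1 (ENSMUSG00000046178, chromosome 6, 8948431 to 9249032, plus strand) encodes neurexophilin 1, a secreted ligand of alpha-neurexins. It read 951, 907 and 958 in WT and 997, 892 and 867 in Hetero, with a log2 difference of -0.03 ± 0.08 (SE); Hetero samples held both the highest and the lowest value. Of the 6 medial genes, 3 had a higher and 3 a lower fitted value, the median log2 difference being -0.01, beside -0.002 over all tested genes.

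Both caudal-lineage genes overlapped between the genotypes. Calb2 (ENSMUSG00000003657, chromosome 8, 110137502 to 110168210, minus strand) encodes calretinin, a calcium buffer of many Vip cells and of some somatostatin cells. With 228, 190 and 236 in WT and 164, 232 and 249 in Hetero, it was the lowest and, relative to its mean, the most variable of the 10 genes, with a coefficient of variation of 15.1% over the 6 samples. Hetero sample 1 was its lowest and Hetero sample 3 its highest value. Its log2 difference came to -0.04 ± 0.17 (SE), and it was 0.15 without Hetero sample 1 and -0.15 without Hetero sample 3. Adarb2 (ENSMUSG00000052551, chromosome 13, 8202866 to 8768747, plus strand), an ADAR-family protein without known editing activity, read 791, 780 and 850 in WT and 830, 830 and 672 in Hetero. Hetero samples 1 and 2 were within the WT range and Hetero sample 3 was below it. Its log2 difference came to -0.06 ± 0.10 (SE), and without Hetero sample 3 it was 0.04.

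Reln (ENSMUSG00000042453, chromosome 5, 21884454 to 22344702, minus strand) encodes reelin, the secreted glycoprotein that in the mature cortex comes from somatostatin cells, neurogliaform cells and the remaining Cajal-Retzius cells. It read 2194, 2377 and 2632 in WT and 2240, 2709 and 2872 in Hetero. Hetero samples 2 and 3 were above the WT samples and Hetero sample 1 was near the lowest of them. The log2 difference came to 0.11 ± 0.10 (SE); it was 0.04 without Hetero sample 3 and 0.22 without Hetero sample 1. Erbb4 (ENSMUSG00000062209, chromosome 1, 68032186 to 69108059, minus strand), the neuregulin receptor of interneurons, read 2527, 2139 and 2196 in WT and 2319, 2384 and 1740 in Hetero. Its value in Hetero sample 3 was below the other 5, which otherwise interleaved. The log2 difference came to -0.10 ± 0.12 (SE), and 0.04 without Hetero sample 3.

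For the 9 genes other than Pvalb the limma unadjusted p lay between 0.238 and 0.896, and the 95% intervals of their ratios of Hetero to WT all included 1. The narrowest bound the Satb1 ratio between 0.958 and 1.17, and the widest, that of Calb2, ran from 0.750 to 1.27. Whether Pvalb differed from the other medial genes in its response was not tested. Per 100 normalized counts of Lhx6, the samples held 150, 120 and 143 of Pvalb in WT and 147, 171 and 210 in Hetero, so Hetero sample 1 was within the WT range for this ratio. Per 100 of Gad1 they held 10.9, 11.5 and 11.3 in WT and 11.8, 12.1 and 14.8 in Hetero, which did not overlap, although Hetero sample 1 and WT sample 2 nearly met. Per 100 of Kcnc1 they held 13.3, 13.6 and 14.1 in WT and 13.2, 14.2 and 16.8 in Hetero, so this ratio overlapped, with Hetero sample 1 the lowest of the 6. Kcnc1 was named for its small p in these same data and was itself higher in Hetero. Dividing by it therefore lessens the Pvalb difference by construction, and it is not a neutral reference. Lhx6 per 100 of Adarb2, a medial gene against a caudal one, was 77.3 ± 11.8 in WT and 76.7 ± 7.64 in Hetero (mean ± SD of 3 samples).

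**Figure D2:**
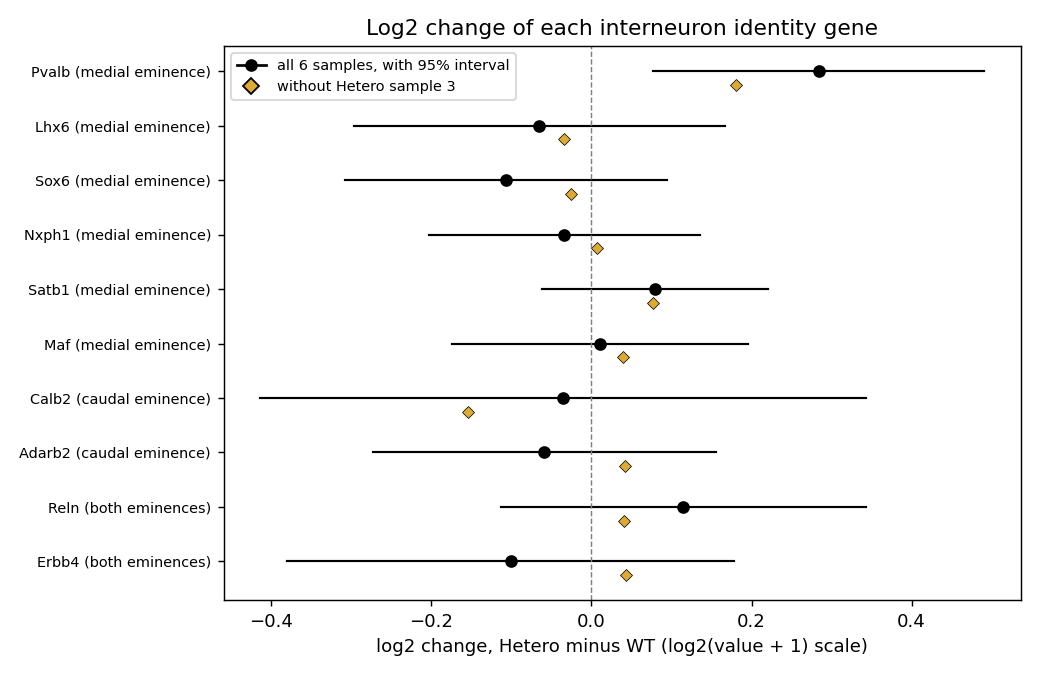
Log2 difference, Hetero minus WT (x axis), for each gene (y axis, with its lineage); black points are the fit to all 6 samples with the 95% interval as a line, and diamonds are the change without Hetero sample 3. The Pvalb interval lies above 0, the other 9 include 0, and the diamonds of Nxph1, Adarb2 and Erbb4 lie on the other side of 0 from their points.

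Hetero sample 3 read higher or lower than the other Hetero samples for several members. Relative to the mean of Hetero samples 1 and 2, its log2 value was higher by 0.36 for Calb2, 0.31 for Pvalb and 0.22 for Reln. It differed by -0.43 for Erbb4, -0.30 for Adarb2, -0.24 for Sox6, -0.12 for Nxph1, -0.09 for Lhx6 and -0.08 for Maf, and Satb1 was level at 0.01. Of these 6 lower genes, Erbb4, Adarb2, Sox6 and Nxph1 span from 1076 kb down to 301 kb of the genome, while Lhx6 (23.5 kb) and Maf (24.9 kb) are short. Pvalb spans 15.3 kb and Calb2 30.7 kb, and Reln, which was higher in that sample, is long at 460 kb. Over tested genes the same difference had a median of 0.04 for 10499 genes spanning under 50 kb, -0.09 for 3935 genes of 50 to 300 kb and -0.16 for 524 genes of at least 300 kb. In the longest class 79.2% of genes were lower in Hetero sample 3. Ranked among all tested genes, the differences of the members lay between percentile 5.64 (Erbb4) and percentile 93.6 (Calb2), with Pvalb at 91.6. The part of span in the values of the members was not tested. Another fit was corrected for GC content and transcript length, which is not genomic span. In that fit Pvalb differed between the groups by 0.28 (0.28 before), Erbb4 by -0.04 (-0.10 before), Adarb2 by -0.04 (-0.06), Sox6 by -0.07 (-0.11), Nxph1 by -0.04 (-0.03) and Reln by 0.17 (0.11). Lhx6 was at -0.07 (-0.07), Calb2 at -0.04 (-0.04), Satb1 at 0.09 (0.08) and Maf at 0.03 (0.01).

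**Figure D3:**
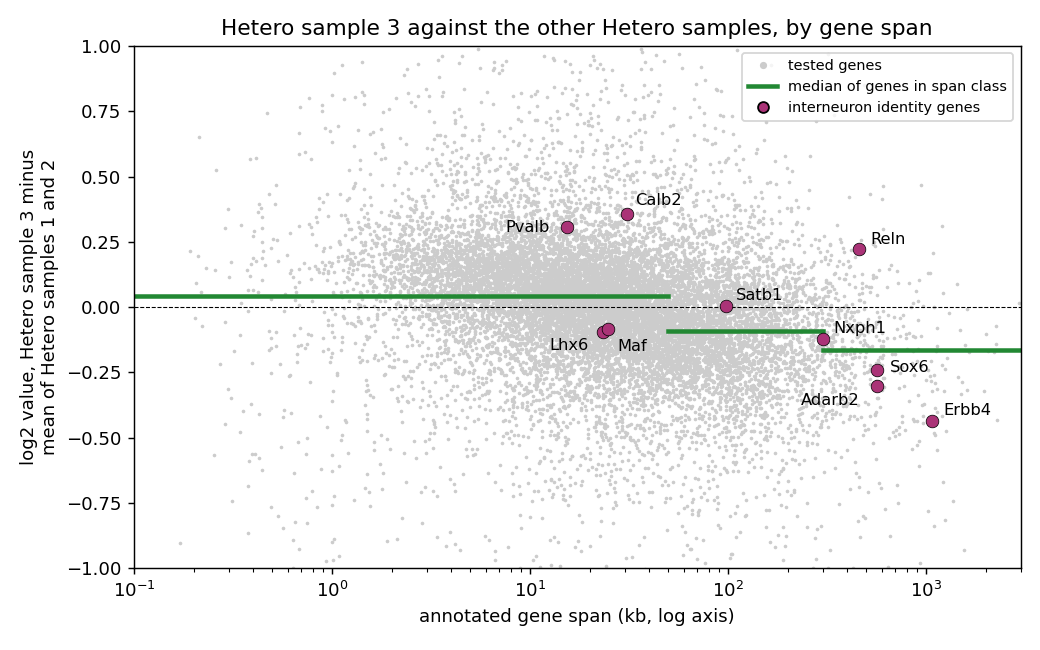
Log2 value in Hetero sample 3 minus the mean of Hetero samples 1 and 2 (y axis) against annotated gene span in kb (x axis, log scale); grey points are tested genes, large points the 10 interneuron identity genes, and green lines the medians of 3 span classes. Medians step from 0.04 to -0.09 and -0.16 with span, and 214 genes beyond ±1 lie outside the y axis.

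Among the 45 pairs of members, 3 had a Pearson correlation above 0.8 over the 6 samples: Sox6 with Adarb2 (0.85), Sox6 with Erbb4 (0.82) and Adarb2 with Erbb4 (0.81). Without Hetero sample 3 these were 0.12, 0.11 and -0.08. Pvalb was most opposed to Sox6, at -0.79 with all samples and -0.01 without Hetero sample 3. Satb1 and Maf, at 0.67, gave 0.83 without that sample, and Lhx6 with Maf went from -0.67 to -0.88. Other pairs were strong only without it. Sox6 with Calb2 went from -0.05 to 0.94, and Lhx6 with Erbb4 from -0.05 to -0.83. These values share libraries, rest on 6 or 5 points and are given as a description.

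Per kilobase of merged annotated exon, the order of the members was led by Pvalb, with a mean of 904 normalized counts per kb over the 6 samples. Satb1 followed at 248, Nxph1 at 195, Erbb4 at 179, Lhx6 at 126, Calb2 at 124, Reln at 105, Maf at 79.6, Adarb2 at 60.4 and Sox6 at 48.6. The sample ranges of neighbours did not overlap between Pvalb and Satb1, Satb1 and Nxph1, Reln and Maf, or Maf and Adarb2. All other neighbours in this order overlapped. Merged exons include every annotated isoform, so a gene with long rare exons is placed too low. Annotated exons of other genes overlap those of Lhx6, Satb1, Maf and Reln; these neighbours are not among the rows analysed here, and reads from them may be counted with the member.

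Other genes of the interneuron lineages were read from lists given by origin. Of 17 tested genes of the medial lineage and its subtypes, 0 passed the adjusted test. In Hetero 11 were fitted higher, the median log2 difference being 0.06. At an unadjusted p under 0.05, 2 were higher and 0 lower, beside 1.66% higher and 2.17% lower over all tested genes. Kcnc1, the Kv3.1 potassium channel of fast-spiking cells and of other neurons, read 6230, 6243 and 6099 in WT and 7094, 6917 and 7085 in Hetero. Its groups did not overlap and its log2 difference came to 0.18 ± 0.05 (SE) (limma unadjusted p = 0.00305, adjusted p = 1.00). Vamp1, a vesicle SNARE of fast-releasing terminals, read 3409, 4023 and 3731 in WT and 4406, 4060 and 4228 in Hetero, a log2 difference of 0.19 ± 0.07 (SE) (limma unadjusted p = 0.0227, adjusted p = 1.00). The lowest Hetero value of Vamp1 was close to the highest WT value. Sst, the somatostatin neuropeptide gene of the other large medial class, read 4404, 4144 and 4922 in WT and 4871, 4182 and 5208 in Hetero, with a log2 change of 0.08.

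For the caudal lineage 16 further genes were tested, and 0 passed the adjusted test. In Hetero 10 were fitted higher, the median log2 difference being 0.06. At an unadjusted p under 0.05, 0 were higher and 1 was lower, beside 1.66% higher and 2.17% lower over all tested genes. The lower gene was Ndnf, a secreted factor of neurogliaform cells of the outermost layer, which read 292, 261 and 329 in WT and 183, 238 and 239 in Hetero. All its Hetero samples were below all WT samples, with a log2 difference of -0.42 ± 0.14 (SE) (limma unadjusted p = 0.0135, adjusted p = 1.00). Tac2, which encodes neurokinin B, had a log2 change of -0.24 with overlapping groups. Vip read 1168, 898 and 1129 in WT and 1106, 1178 and 1165 in Hetero, a log2 difference of 0.12 ± 0.10. (SE) WT sample 2 was the lowest sample for Vip, and the other 5 lay close together.

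Genes common to GABAergic neurons numbered 11 tested, of which 0 passed the adjusted test and 0 reached an unadjusted p under 0.05. Of the 11 genes 9 were fitted higher in Hetero, the median log2 difference being 0.08, beside 49.1% of all tested genes. For 3 the groups did not overlap, all higher in Hetero, beside 4.4% of all tested genes. Gad1, the main GABA-synthesizing enzyme, read 7580, 7367 and 7613 in WT and 7962, 8126 and 8021 in Hetero, a log2 difference of 0.10 ± 0.05 (SE) (limma unadjusted p = 0.0657, adjusted p = 1.00). The lowest Hetero value of Gad1 was above its highest WT value. Gad2, the second such enzyme, had a log2 change of -0.02 and the vesicular transporter Slc32a1 one of 0.03, both with overlapping groups. The other non-overlapping genes were the transcription factors Sp9, at 51.1 ± 10.9 in WT and 69.3 ± 5.70 in Hetero (mean ± SD of 3 samples), and Dlx5, named after its values were seen, at 59.9 ± 7.65 and 71.1 ± 0.763.

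**Figure D4:**
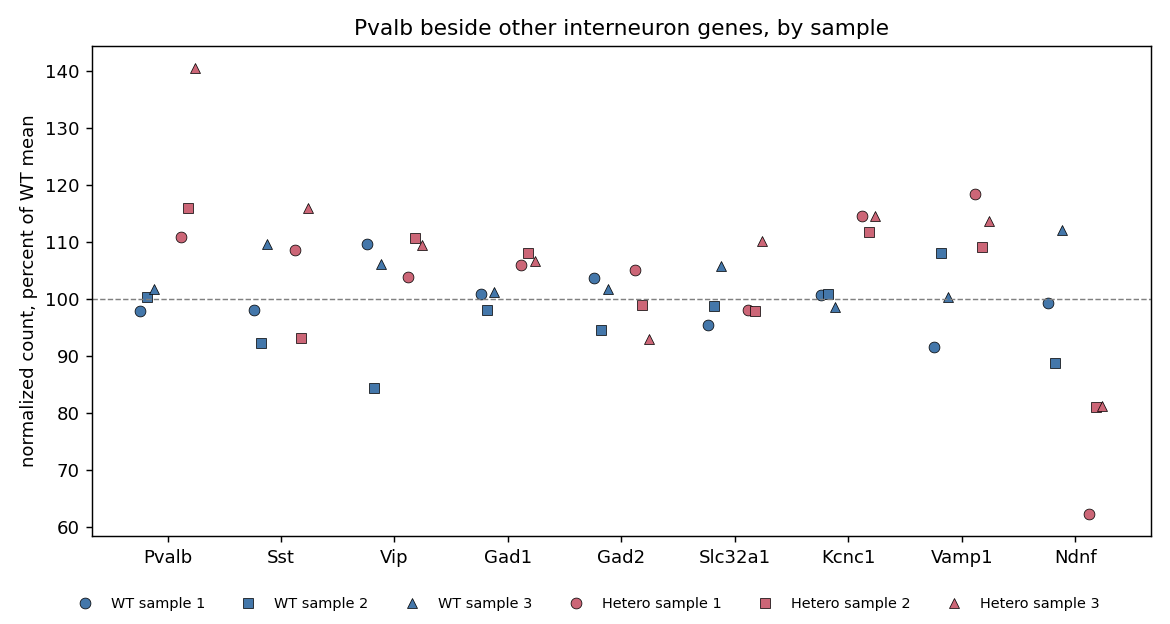
Normalized counts as percent of the WT mean (y axis, not starting at 0) for Pvalb and 8 other interneuron genes (x axis); each point is a sample. Pvalb lies at 111% to 140% in Hetero, Kcnc1 at 112% to 115%, Gad1 at 106% to 108% and Ndnf at 62.3% to 81.2%, while Sst, Vip, Gad2 and Slc32a1 overlap between the groups.

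Ligands, receptors and relatives of the members gave 0 adjusted calls and 0 genes at an unadjusted p under 0.05. Among 9 tested neuregulin and ErbB genes the smallest p belonged to Erbb2, a partner receptor of Erbb4, at 89.1 ± 3.58 in WT and 116 ± 21.9 in Hetero (mean ± SD of 3 samples), with groups that did not overlap and a log2 change of 0.36 (standard error 0.17), and next was Egfr at -0.22. Of 9 reelin receptors and signalling genes 8 were fitted lower in Hetero, the median log2 difference being -0.04; the adaptor Dab1 differed by -0.08 and the kinase gene Src by -0.06. Among 6 neurexophilin and neurexin genes, Nxph3, a relative of Nxph1, differed by -0.23 with a limma adjusted p of 1.00. Of 11 tested paralogs of the members 8 were fitted lower in Hetero, with a median of -0.04, and the small Maf factor gene Mafk was lower in every Hetero sample, at 267 ± 5.33 in WT and 228 ± 21.8 in Hetero (mean ± SD of 3 samples), a log2 change of -0.23. Ocm, the nearest relative of Pvalb, was low, with normalized counts of 13.2 ± 3.11 in WT and 9.15 ± 7.30 in Hetero.

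Several members are also expressed outside interneurons, and markers of those cells are described here. All 9 oligodendrocyte precursor markers were fitted lower in Hetero, the median log2 difference being -0.23 and a summed normalized count of 11034 to 13064 in WT and 9319 to 11198 in Hetero. Of these 9 markers, 4 (Gpr17, Neu4, Cspg4 and Pdgfra) were lower at an unadjusted p under 0.05 and did not overlap between the groups. Over all tested genes 2.17% were lower by that rule and 4.32% lay wholly below WT. The 9 markers were read in the same libraries and are not independent observations, and 0 passed the adjusted test. Sox6 is also expressed by these cells. The log2 level of the 9 markers, averaged after centring each gene, was 0.01, 0.06 and 0.24 in WT samples 1 to 3. It was -0.27, -0.07 and 0.03 in Hetero samples 1 to 3. Sox6 read 746, 735 and 758 in WT and 696, 773 and 620 in Hetero. In microglia, 12 of 12 markers were fitted lower in Hetero (median -0.10), with sums of 13949 to 15771 and 13216 to 14661. Excitatory neuron markers split into 4 higher and 4 lower genes, with Camk2a and Slc17a7 lower at an unadjusted p under 0.05 and without overlap; their sums, of which Camk2a is the largest term, were 232225 to 245980 in WT and 226124 to 228772 in Hetero and did not overlap. Pan-GABAergic sums overlapped, at 30318 to 32716 and 31704 to 32330. Astrocyte sums were 33669 to 38094 and 32622 to 35450, and 4 of 6 astrocyte markers were fitted lower in Hetero.

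Tissue at the edge of the dissection was represented as follows. Meningeal and fibroblast sums were 2150 to 3601 in WT and 2825 to 3652 in Hetero, with 6 of 7 genes higher in fitted value (median 0.23). Striatal markers summed to 4118 to 4578 and 4481 to 4768, with 2 of 7 higher, and olfactory bulb markers to 213 to 233 and 219 to 249 over 3 tested genes, with Eomes and Tbx21 near 0. Of the Cajal-Retzius markers, Lhx1 and Lhx5 are not among the rows analysed here, and the 3 tested ones summed to 1608 to 1699 and 1512 to 2010, mostly Cacna2d2; Trp73 was below 22 in every sample. The part of these cell types in the values of Pvalb and the other members was not tested.

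**Figure D5:**
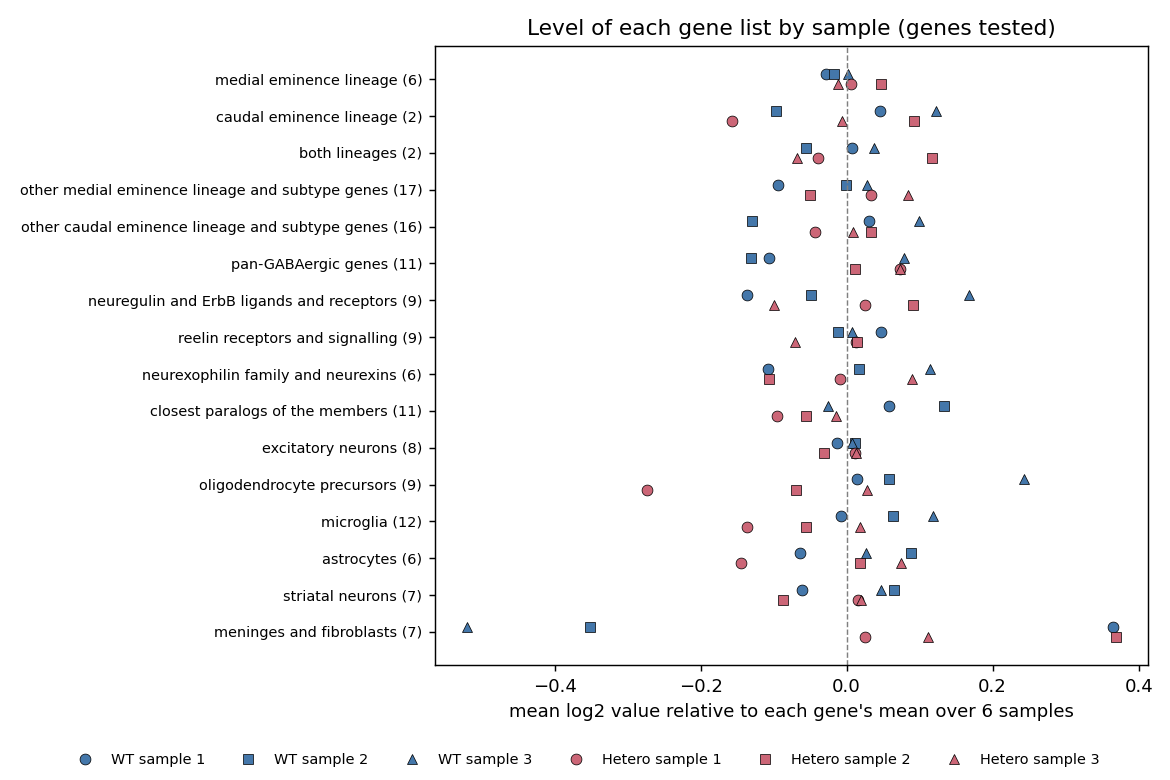
Level of each gene list in each sample (x axis, log2 values relative to each gene's own average, averaged over the list; number of tested genes in brackets). The member lists overlap between WT and Hetero, from -0.03 to 0.05 for the medial genes and from -0.16 to 0.12 for the caudal genes, and the meningeal list has the widest spread, from -0.52 to 0.37.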

How the data were processed

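The deposited values are normalized counts of 17889 genes, treated as a signal because they are fractional, with column totals of 29879143 to 30735442. Per the submitters' processing notes the tools were Salmon 0.11.2, DESeq2 1.19.11 and R 3.6.0 on GRCm38, without roles. How the authors scaled and filtered the values is not given in the sources used here. Libraries were prepared with a stranded mRNA kit, per the labels' protocols; whether the counting used strand is not stated. Within 0.02 of a step, 15.5% to 27.9% of values under 60 were whole multiples, too few to recover reads, and no count test was run. Scaling hides depth: an equal value is less precise in a shallower library.

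Identifiers were matched to GENCODE M21 (17875 matched, 14 not). Values were analysed as log2(value + 1) for genes with a mean of at least 10, so log2 changes understate those of low genes. Hetero was compared with WT by limma 3.58.1 in R 4.3.3 (intensity trend, robust), two-sided, and p-values were Benjamini-Hochberg adjusted over the 14969 genes, with a threshold of 0.05; the fit was tested on simulated data. Members, lists and tests were chosen with earlier results of these data known. Named were all members, Cyfip2, the 2 smallest p of each pathway list, general markers (Gad1, Gad2, Slc32a1, Sst, Vip) and the 5 genes most correlated with Pvalb. A gene named by this rule is not reported here. Alternatives were other moderation, scaling, filters, pseudocounts and threshold, a replicate block, correction for GC content and length, and leaving out samples. Replicates were not duplicates: the smallest median absolute log2 difference within a group was 0.09.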

Additional observations from a re-analysis of the deposited data

How the results depend on the processing

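Over 17 alternatives 0 members were called in each. Pvalb stayed higher in Hetero in all 17, with limma adjusted p values from 0.624 to 1.00, as did Reln and Satb1, and Sox6 stayed lower. For Pvalb, whose groups did not overlap, leaving out samples could not have reversed the sign. Reversals, all with adjusted p above 0.94, were as follows. Leaving out 1 sample gave log2 changes of -0.15 to 0.15 for Calb2, -0.14 to 0.033 for Lhx6, -0.046 to 0.049 for Maf, -0.094 to 0.0066 for Nxph1, -0.11 to 0.043 for Adarb2 and -0.18 to 0.044 for Erbb4. Without a reversal, the ranges were 0.037 to 0.12 for Satb1, -0.18 to -0.026 for Sox6 and 0.041 to 0.22 for Reln. Without sample 3 of both groups Nxph1 was at 0.022, Adarb2 at 0.081 and Erbb4 at 0.016. Members with a higher fitted value numbered 4 with all samples and 7 without Hetero sample 3. Counts over all genes moved from 0 higher and 0 lower to 1 and 1 with the replicate block and to 3 and 1 without sample 3 of both groups, and the GC content and length correction gave 1 lower gene. Leaving out 1 sample gave 0 to 1 higher genes (1 without WT sample 1) and 0 to 1 lower genes (1 without Hetero sample 2). Cyfip2, at -0.57 and a limma adjusted p of 0.312 in the reported fit, passed at -0.57 with the replicate block (adjusted p = 0.0016), at -0.55 with the GC content and length correction (0.0334) and at -0.56 without sample 3 of both groups (0.0134); the cause was not tested. Same-numbered samples had correlated deviations of -0.01, 0.004 and 0.23, and differently numbered ones had -0.18 to 0.18. The labels give no batch, and the numbers were not taken to pair the samples. With the replicate block 5.26% of genes had a limma unadjusted p under 0.05, against 3.83% in the reported fit. Pvalb then had a limma adjusted p of 0.624. Whether the numbers do pair the samples is not settled by these values. Precision was lowest for Calb2, the member with the lowest counts and a standard error of 0.17.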

Other observations

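The genes whose pattern over the 6 samples was most like that of Pvalb were found among 12024 protein-coding genes with a mean normalized count of at least 100. The 5 highest Pearson correlations of log2 values belonged to Hexa (0.99), a lysosomal hexosaminidase subunit, Kcnj4 (0.99), an inward rectifier potassium channel, Rnf144b (0.99), a ubiquitin ligase, Dusp8 (0.99), a phosphatase of MAP kinases, and Tuba8 (0.98), an alpha-tubulin. Tuba8 read 255, 302 and 294 in WT and 338, 359 and 481 in Hetero, and Kcnj4 read 4160, 4219 and 4287 in WT and 4406, 4511 and 4782 in Hetero. In each of the 5 the Hetero values lay above the WT values and Hetero sample 3 was the highest sample, a pattern that the choice of genes by their likeness to Pvalb largely fixes. Of the candidates, 154 (1.28%) had a correlation above 0.9 with Pvalb, and no member of the interneuron group was among the 5.

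Nkx2-1, the factor that patterns the medial eminence in the embryo, had a mean below the minimum for testing, with normalized counts between 2.09 and 12.4 in the 6 samples.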
